A study of Homo sapiens with 6 samples.

Results

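The genes described here encode the kinase P-TEFb, the proteins that hold it inactive on the 7SK RNA, and 2 BET proteins. There are 9 of them, CDK9, CCNT1, CCNT2, HEXIM1, HEXIM2, LARP7, MEPCE, BRD2 and BRD3, among the 57905 genes of the deposited count table. They were listed by name, 8 were found by their symbol in the deposited expression table and BRD3 by its symbol in GENCODE, and all 9 were counted and passed the filter on low counts that left 16622 genes to test. RNA was sequenced from NALM6, an established human cell line of B cell precursor acute lymphoblastic leukemia. The libraries were 3 of cells given the solvent DMSO and 3 of cells given 500 nM THZ1, a covalent inhibitor of the kinase CDK7, each for 24 h. The comparison asks how a CDK7 inhibitor changed the transcripts of the next kinase in the transcription cycle and of its regulators. All libraries come from the same cell line and no label ties them to separate cultures, so p-values measure the spread between these libraries, which may be technical.

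P-TEFb is the kinase CDK9 bound to a cyclin T, and it phosphorylates RNA polymerase II and the factors that hold the polymerase paused near the start of genes. A large share of it is kept inactive in a ribonucleoprotein: HEXIM1 or HEXIM2 bound to the 7SK RNA blocks the kinase, LARP7 binds the 3′ end of 7SK and stabilizes it, and MEPCE caps its 5′ end. BET proteins bind acetylated histones through paired bromodomains and help to bring P-TEFb and other elongation factors to chromatin. The release of P-TEFb from 7SK is known to respond to transcription inhibitors, and HEXIM1 transcription is itself known to respond to released P-TEFb.

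The libraries held 11015480 to 11164840 counts with DMSO and 7876402 to 8314306 with THZ1. A floor of 3 counts, which covers counting error only, corresponded to at most 0.253 CPM with DMSO and 0.415 CPM with THZ1 (CPM after TMM scaling, a count relative to the size of its library). All 12 B cell precursor markers examined were counted, and their summed level was 4133 to 4269 CPM with DMSO and 2192 to 2257 CPM with THZ1. Of the 12, 9 were called lower (41.1% of all genes tested) and 2 were called higher (43.5% of all). The 5 T cell markers summed to at most 0.169 CPM with DMSO and 0.969 CPM with THZ1. The 5 myeloid markers summed to 3.97 to 4.67 CPM with DMSO and 17.0 to 18.02 CPM with THZ1. The rise came through CD14 and CSF1R, whereas LYZ went from 2.48 to 1.39 CPM and was called lower, with overlapping libraries. MPO was not called and FCGR3A was too low to be tested. The part of these markers in the results was not tested. In bulk RNA, fewer cells of a type and less RNA per cell cannot be told apart. TMM scaling rests on most genes being unchanged. With upper quartile factors in its place the median log2 fold change of all genes moved by 0.19, and with unscaled library sizes it moved by −0.25.

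The promoter windows of both HEXIM genes, BRD2 and BRD3 are shown because these paralogs changed by different amounts after THZ1. Each window covers 250 bases before to 50 bases after the RefSeq start nearest to the start of the GENCODE canonical transcript, and was placed on GRCh37 by exact match. All 9 genes had at least 1 window in RefSeq. These strings of letters were searched on either strand: TATAAA, the core of a TATA box, CACGTG, the E-box bound by MYC, GGGCGG, a GC box, and CCAAT. Capitals mark every match, so that CCAAT on the other strand reads ATTGG and GGGCGG reads CCGCCC, and neighbouring GC boxes can share bases.
HEXIM1, chr17:43225592-43225891, plus strand: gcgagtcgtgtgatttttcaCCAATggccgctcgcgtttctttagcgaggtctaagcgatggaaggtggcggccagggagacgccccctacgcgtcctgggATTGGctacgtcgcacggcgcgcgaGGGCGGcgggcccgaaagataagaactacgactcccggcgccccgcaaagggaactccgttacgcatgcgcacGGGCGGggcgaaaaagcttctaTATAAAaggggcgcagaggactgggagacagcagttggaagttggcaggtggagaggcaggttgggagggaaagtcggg
HEXIM2, chr17:43238992-43239291, plus strand: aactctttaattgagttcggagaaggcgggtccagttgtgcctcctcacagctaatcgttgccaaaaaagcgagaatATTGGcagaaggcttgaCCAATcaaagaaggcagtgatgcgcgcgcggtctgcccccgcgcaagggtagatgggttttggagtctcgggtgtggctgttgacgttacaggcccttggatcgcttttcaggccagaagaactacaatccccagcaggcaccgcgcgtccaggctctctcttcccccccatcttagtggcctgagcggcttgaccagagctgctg
BRD2, chr6:32936121-32936420, plus strand: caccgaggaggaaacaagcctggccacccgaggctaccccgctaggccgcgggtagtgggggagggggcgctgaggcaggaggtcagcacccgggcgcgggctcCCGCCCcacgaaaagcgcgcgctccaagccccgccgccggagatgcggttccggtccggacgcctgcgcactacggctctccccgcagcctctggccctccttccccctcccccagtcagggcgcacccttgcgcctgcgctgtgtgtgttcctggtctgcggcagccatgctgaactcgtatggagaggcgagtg
BRD3, chr9:136933099-136933398, minus strand: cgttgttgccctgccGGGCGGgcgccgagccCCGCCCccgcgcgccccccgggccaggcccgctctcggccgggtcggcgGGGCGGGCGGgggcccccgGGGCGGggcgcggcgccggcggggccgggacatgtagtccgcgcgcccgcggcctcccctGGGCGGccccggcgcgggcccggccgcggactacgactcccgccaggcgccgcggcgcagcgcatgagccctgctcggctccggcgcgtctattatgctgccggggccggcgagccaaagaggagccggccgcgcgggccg
HEXIM1 was the 1 gene of the 9 whose nearest window held TATAAA, at 29 bases before the start and on the gene's own strand. Among 35116 RefSeq windows of this length, 11.5% held TATAAA anywhere and 2.30% held it on the gene's strand beginning 40 to 20 bases before the start. BRD3 held 6 GC boxes in a window of 85.0% G and C, against 1 in BRD2 (71.7%), 2 in HEXIM1 (62.0%) and none of these letters in HEXIM2 (56.3%). GGGCGG occurred in the nearest windows of 7 of the 9 genes and in 45.0% of all windows. CCAAT occurred in 5 of the 9, against 34.6% of all windows, and CACGTG in 1, CCNT1, against 7.26%. A match of letters is a description and not evidence of binding.

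In the scaled libraries, transcripts of the kinase, its cyclins, both HEXIM inhibitors and BRD2 were higher with THZ1, and those of LARP7 and BRD3 lower. These levels are relative to the size of a library, so amounts per cell cannot be read from them. A gene was called where its edgeR quasi-likelihood p, Benjamini-Hochberg adjusted over the genes tested, was below 0.05. This held for 8 of the 9 genes and for 84.5% of all genes, with 6 of the 9 called higher (43.5% of all) and 2 called lower (41.1% of all). Past a log2 fold change of 1.5 in either direction were 5 of the 9 and 37.5% of all genes, 3 of them higher (HEXIM1, HEXIM2 and BRD2; 24.6% of all) and 2 lower (LARP7 and BRD3; 12.9% of all). The libraries of the treatments did not overlap for 8 of the 9, against 84.7% of all genes. So many genes changed with THZ1 that these counts lie close to the background, and the size and direction of each gene's change carry the description. The median log2 fold change was 0.87 over the 9 genes and 0.03 over all genes tested. Summed over the 9 genes, the level was 842 to 859 CPM with DMSO and 2867 to 3017 CPM with THZ1.

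**Figure D1:**
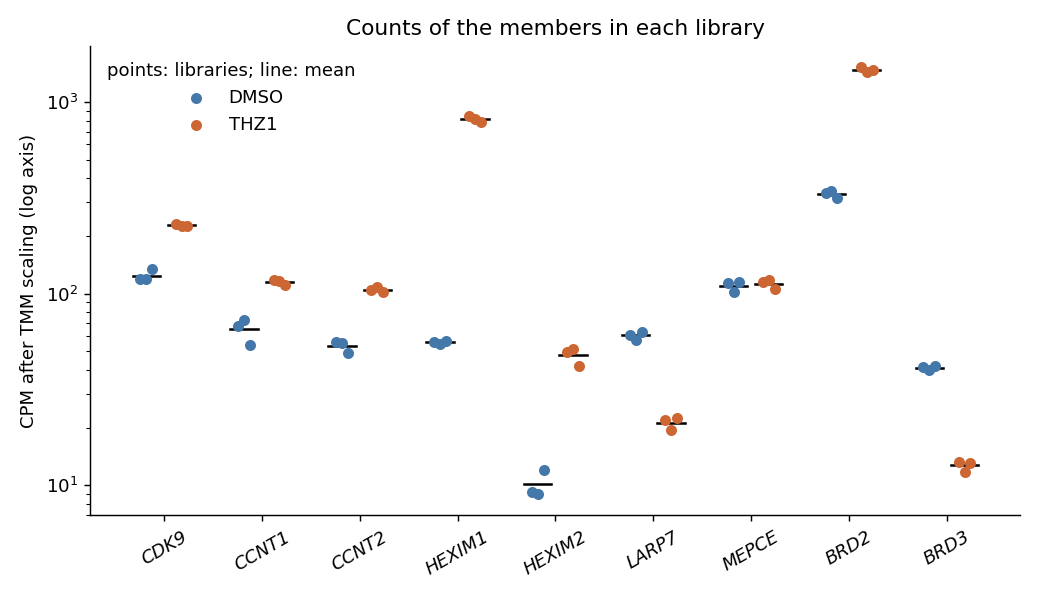
CPM after TMM scaling on a log axis, for each of the 9 genes in each of the 3 DMSO-treated (blue) and 3 THZ1-treated (orange) libraries, with a black line at the mean. The treatments separate for every gene but MEPCE, and HEXIM1 moves farthest, from a mean of 55.9 to 816 CPM.

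CDK9, the catalytic subunit of P-TEFb, lies on chromosome 9 from 130547958 to 130553071 (GRCh37, plus strand). Its level was 119, 119 and 134 CPM in the DMSO-treated libraries and 231, 226 and 226 CPM in the THZ1-treated libraries. Every THZ1-treated library was higher than every DMSO-treated library, and the THZ1-treated libraries lay closer together. The log2 fold change of CDK9 was 0.87 (standard error, SE, 0.07, edgeR adjusted p = 5.9e-13), a 1.83-fold rise. The short MIR3960 lies within the exons of CDK9 on the same strand and held no counts.

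CCNT1 and CCNT2 encode the cyclins T1 and T2, alternative partners of CDK9. CCNT1, on chromosome 12 from 49082241 to 49110781 (minus strand), had 67.9, 73.0 and 54.1 CPM with DMSO and 117, 117 and 111 CPM with THZ1. CCNT2, on chromosome 2 from 135675805 to 135716912 (plus strand), had 56.1, 55.4 and 48.7 CPM with DMSO and 105, 108 and 102 CPM with THZ1. Both genes were higher in every THZ1-treated library, and DMSO replicate 3 was the lowest library for both. The log2 fold changes were 0.82 (SE 0.09, edgeR adjusted p = 4.0e-10) for CCNT1 and 0.97 (SE 0.08, edgeR adjusted p = 1.3e-12) for CCNT2. Between 31.0% and 33.3% of all genes tested had a higher log2 fold change than CDK9, CCNT1 or CCNT2. Among genes with at least their own CPM in DMSO-treated cells, 167 of 1516 had a higher log2 fold change than CDK9, 387 of 3453 than CCNT1 and 378 of 4178 than CCNT2, with this limit on level chosen after the values were seen.

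HEXIM1, whose protein inhibits CDK9 when bound to 7SK, lies on chromosome 17 from 43225842 to 43229466 (plus strand) and consists of 1 exon. It had 56.1, 54.7 and 56.9 CPM with DMSO and 846, 818 and 783 CPM with THZ1. The 3 DMSO-treated libraries nearly coincided, and the lowest THZ1-treated library was far above them. The log2 fold change of HEXIM1 was 3.87 (SE 0.07, edgeR adjusted p = 1.5e-28), a 14.6-fold rise from 55.9 ± 1.07 to 816 ± 31.5 CPM (SD, n = 3 libraries each). Over all genes tested, 10.4% had a higher log2 fold change, but of the 4004 genes with at least the CPM of HEXIM1 in DMSO-treated cells only 5 did. This limit, too, was chosen after the values were seen.

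HEXIM2, the paralog of HEXIM1, begins 8600 bases downstream of it on the same strand, from 43238067 to 43247407, and its canonical transcript has 4 exons. It had 9.18, 9.02 and 12.1 CPM with DMSO and 49.8, 51.1 and 42.1 CPM with THZ1. The treatments did not overlap, and replicate 3 was the highest DMSO-treated and the lowest THZ1-treated library. Its log2 fold change was 2.24 (SE 0.12, edgeR adjusted p = 5.1e-17), a 4.73-fold rise. HEXIM2 was thus the less abundant of the paralogs per length under either treatment, and it also rose less than HEXIM1.

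LARP7, on chromosome 4 from 113558233 to 113578852 (plus strand), was the member of the 7SK complex that fell. It had 60.8, 57.5 and 63.3 CPM with DMSO and 21.8, 19.5 and 22.3 CPM with THZ1. The highest THZ1-treated library was well below the lowest DMSO-treated library, and the log2 fold change was −1.51 (SE 0.10, edgeR adjusted p = 3.6e-15). A lower log2 fold change than that of LARP7 was found for 12.8% of all genes tested. Among the 3717 genes with at least its CPM in DMSO-treated cells, 538 had one, a limit chosen after the values were seen. MEPCE, on chromosome 7 from 100025945 to 100031749 (plus strand), had 113, 102 and 115 CPM with DMSO and 115, 117 and 105 CPM with THZ1. Its libraries overlapped, and its log2 fold change of 0.03 (SE 0.08) did not pass the test (edgeR adjusted p = 0.702). The sign of MEPCE depended on the scaling, with 0.22 under upper quartile factors and −0.22 under library sizes alone, each at an adjusted p below 0.05.

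BRD2, on chromosome 6 from 32936371 to 32949282 (plus strand) in the MHC region, had 335, 343 and 316 CPM with DMSO and 1518, 1434 and 1462 CPM with THZ1. All THZ1-treated libraries were far above all DMSO-treated libraries, and the log2 fold change was 2.15 (SE 0.07, edgeR adjusted p = 4.8e-23), a 4.44-fold rise. Over all genes tested, 19.3% had a higher log2 fold change than BRD2, and of the 379 genes with at least its CPM in DMSO-treated cells 3 did, a limit that was again chosen after the values were seen. BRD3, on chromosome 9 from 136895427 to 136933657 (minus strand), had 41.3, 39.9 and 42.0 CPM with DMSO and 13.3, 11.8 and 13.1 CPM with THZ1. Each THZ1-treated library was below each DMSO-treated library, the opposite direction from BRD2. The log2 fold change of BRD3 was −1.69 (SE 0.11, edgeR adjusted p = 6.7e-15), a 3.23-fold fall. A lower log2 fold change than that of BRD3 was found for 10.1% of all genes tested. Among the 5225 genes with at least its CPM in DMSO-treated cells, 534 had one, under the same kind of limit.

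**Figure D2:**
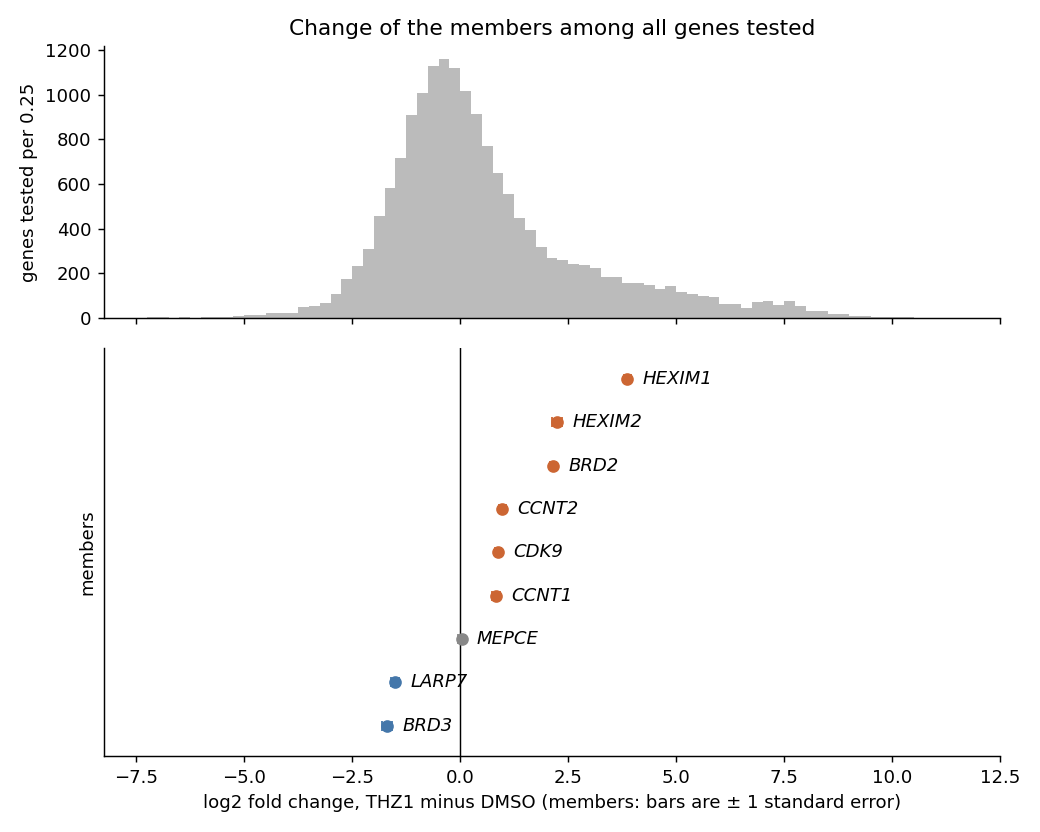
Upper panel: number of genes tested in each step of 0.25 of log2 fold change, THZ1 minus DMSO. Lower panel: the log2 fold change of the 9 genes with bars of ± 1 standard error, orange where higher, blue where lower and grey where not called. HEXIM1, at 3.87, lies in the upper tail of all genes, whereas CDK9, CCNT1 and CCNT2 lie between 0.82 and 0.97.

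Genes that rose and genes that fell overlapped in span. HEXIM1 (3.63 kb), CDK9 (5.11 kb) and HEXIM2 (9.34 kb) were short genes that rose, and MEPCE (5.80 kb) was short and did not pass the test. CCNT2 had the longest span, 41.1 kb, and rose, whereas BRD3 (38.2 kb) and LARP7 (20.6 kb) fell. In exons of the canonical transcript, the 5 genes that rose other than BRD2 had between 1 and 9, and the genes that fell had 12 (BRD3) and 13 (LARP7). BRD2 rose and also has 13 exons. These are descriptions of 9 genes and were not tested.

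Levels of different genes were compared as CPM per kilobase of exon, with the exons of all GENCODE transcripts of a gene merged. With DMSO, CDK9 was the most abundant (41.3 ± 2.73), followed by BRD2 (36.8 ± 1.52), MEPCE (32.7 ± 2.08) and HEXIM1 (15.4 ± 0.296, SD, n = 3 libraries each). The remaining genes lay between 5.02 and 8.82, where CCNT1 overlapped LARP7, BRD3 overlapped CCNT2, and CCNT2 overlapped HEXIM2 in their libraries. By this measure the order of these neighbours was within the spread. With THZ1, HEXIM1 was the most abundant (225 ± 8.68), followed by BRD2 (164 ± 4.72), CDK9 (75.8 ± 1.09) and MEPCE (33.4 ± 1.95). HEXIM2 (23.7 ± 2.42), CCNT1 (15.6 ± 0.433) and CCNT2 (11.6 ± 0.367) came next, and LARP7 (2.62 ± 0.185) and BRD3 (1.85 ± 0.120) were the lowest, with no overlap between any neighbours. Among 16092 genes tested with a known length, HEXIM1 moved from rank 3212 with DMSO to rank 183 with THZ1, and BRD2 from 1179 to 256. LARP7 moved from rank 5778 to 10493 and BRD3 from 6687 to 11737. In the deposited FPKM values, which hold 8 of the 9 genes and not BRD3, BRD2 stood above CDK9 and LARP7 above CCNT1 with DMSO. LARP7 was there at 42.0 ± 1.51 FPKM, against 24.8 ± 3.46 for CCNT1 and 43.1 ± 0.305 for HEXIM1. The place of LARP7 with DMSO thus depended on the measure used. With THZ1 the order in FPKM was the same as here.

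**Figure D3:**
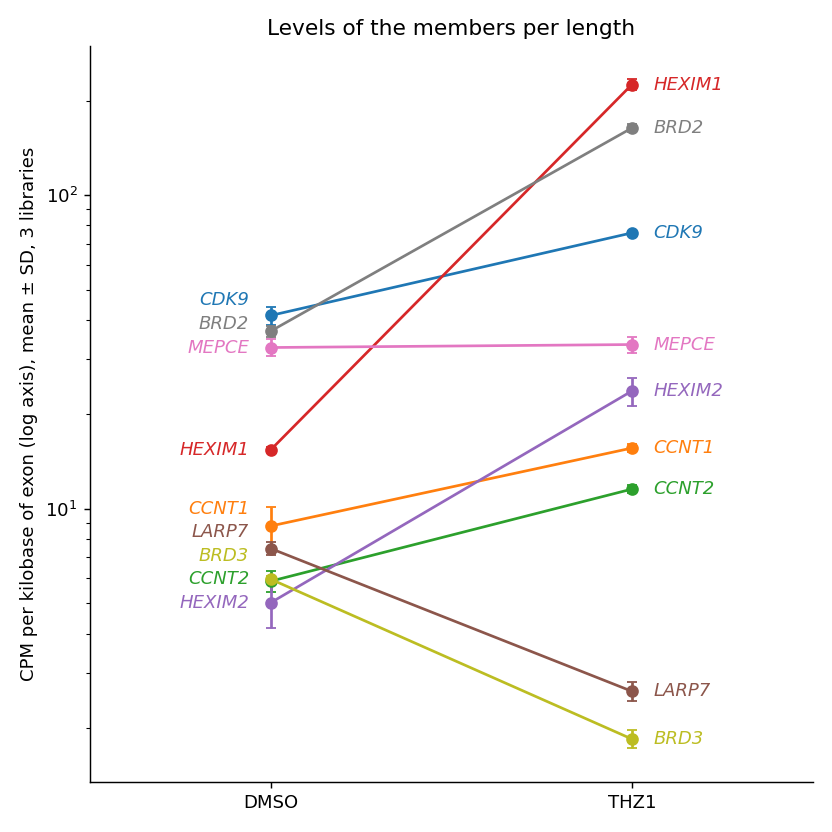
Mean CPM per kilobase of exon ± SD (n = 3 libraries) on a log axis, for each gene with DMSO (left) and THZ1 (right). CDK9 leads with DMSO at 41.3 and HEXIM1 leads with THZ1 at 225, while LARP7 and BRD3 drop to the bottom of the order.

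Ratios of 2 genes within a library do not depend on the scaling between libraries, and 5 such ratios were compared by two-sided exact permutation tests, where 3 libraries against 3 allow no p below 0.1. The counts of HEXIM1 were 0.426 to 0.469 times those of CDK9 with DMSO and 3.47 to 3.65 times with THZ1. The inhibitor's transcript thus went from fewer counts than the kinase's to more in all 3 THZ1-treated libraries, and the log2 ratio rose by 2.99 (p = 0.1, adjusted p = 0.125, exact permutation). Per kilobase of exon the ratio was 0.374 with DMSO and 2.97 with THZ1.

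The counts of BRD3 were 0.116 to 0.133 times those of BRD2 with DMSO and 0.00825 to 0.00901 times with THZ1. This was the widest shift of the 5 ratios, a difference of −3.84 on the log2 scale, or 14.3-fold (p = 0.1, adjusted p = 0.125, exact permutation). The HEXIM2 to HEXIM1 ratio went from 0.164 to 0.213 with DMSO to 0.0539 to 0.0625 with THZ1, a log2 difference of −1.62. The LARP7 to MEPCE ratio went from 0.536 to 0.563 with DMSO to 0.167 to 0.213 with THZ1, a log2 difference of −1.54. Both had p = 0.1 and adjusted p = 0.125 by the exact permutation test, and the libraries of the treatments did not overlap.

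The cyclins kept closer to each other. The counts of CCNT2 were 0.759 to 0.900 times those of CCNT1 with DMSO and 0.894 to 0.929 times with THZ1, so that the treatments overlapped. The log2 ratio differed by 0.14 (p = 0.2, adjusted p = 0.2, exact permutation), from −0.27 ± 0.12 to −0.13 ± 0.03 (SD, n = 3 libraries each), a difference that was not shown at this number of libraries and was not shown to be absent.

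**Figure D4:**
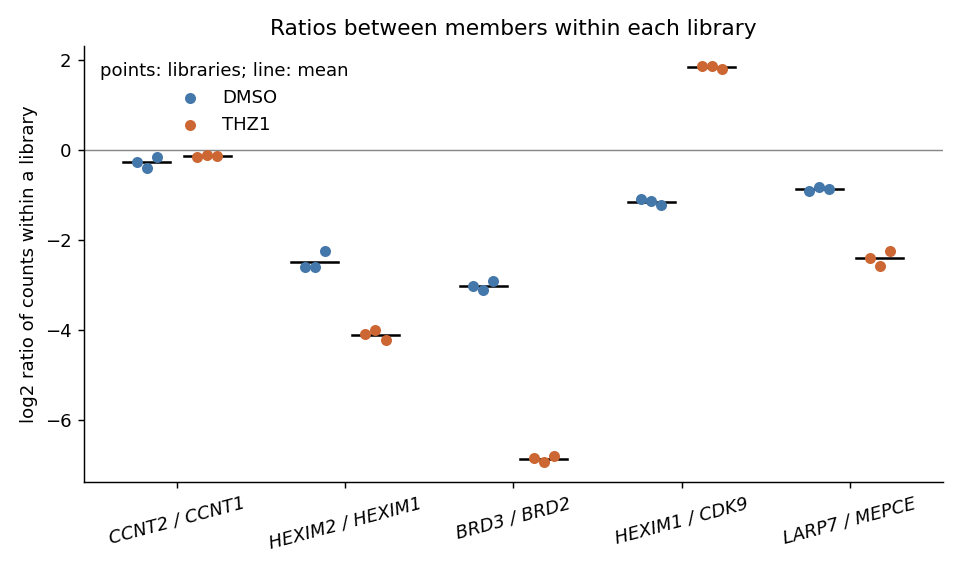
log2 ratio of the counts of 2 genes within each library, for the 3 DMSO-treated (blue) and 3 THZ1-treated (orange) libraries, with a black line at the mean. The HEXIM1 to CDK9 ratio crosses 0, from a mean of −1.15 to 1.84, and the BRD3 to BRD2 ratio falls from −3.01 to −6.85.

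Several of these genes share sequence with a gene on the opposite strand, and the sources used here do not state whether the counting used strand, so such reads cannot be told apart. HEXIM2-AS1 overlaps HEXIM1 by 520 exonic bases and HEXIM2 by 567, and it rose from 6.52 ± 0.830 to 101 ± 6.10 CPM. Its log2 fold change of 3.95 was close to the 3.87 of HEXIM1 and above the 2.24 of HEXIM2. ENSG00000267288, which overlaps HEXIM2 by 1026 exonic bases, rose by a log2 fold change of 1.74. MIR302CHG overlaps LARP7 by 1318 exonic bases, and its log2 fold change of −1.50 was close to the −1.51 of LARP7. BRD3OS overlaps BRD3 by 1283 exonic bases, and both had a log2 fold change near −1.70 (−1.70 for BRD3OS and −1.69 for BRD3). ENSG00000263756 overlaps BRD2 by 577 exonic bases and rose by 2.86 on the log2 scale. Each of these 5 overlapping genes passed the edgeR test at an adjusted p below 0.05, as 84.5% of all genes tested did.

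The remaining opposite-strand genes shared at most 203 exonic bases with their partner. HLA-DMA, an MHC class II chaperone gene that shares 55 exonic bases with BRD2, had a log2 fold change of −0.38 (edgeR adjusted p = 0.00179) while BRD2 rose, but with upper quartile factors it was −0.19 and not called (edgeR adjusted p = 0.104). ZCWPW1, which shares 203 exonic bases with MEPCE, rose by 1.17, and ENSG00000235138, which overlaps BRD3 by no exonic base, rose by 3.39 from 7 counts in all DMSO-treated libraries to 48 counts in all THZ1-treated libraries. CCNT2-AS1, which moved the same way as CCNT2, had a log2 fold change of 0.61 that did not pass the test (edgeR adjusted p = 0.0985), but with upper quartile factors it was 0.80 and called higher (edgeR adjusted p = 0.0321). In the counts deposited, HEXIM1 and BRD2 exceeded their overlapping genes under both treatments, with 816 CPM against 101 CPM and 1471 CPM against 320.2 CPM after THZ1. HEXIM2 exceeded HEXIM2-AS1 with DMSO (10.1 against 6.52 CPM) but not with THZ1 (47.7 against 101 CPM). BRD3 and BRD3OS were close, at 41.1 and 38.4 CPM with DMSO and 12.7 and 11.9 CPM with THZ1. LARP7 stood above MIR302CHG, at 60.5 against 23.7 CPM with DMSO and 21.2 against 8.39 CPM with THZ1. How many reads these pairs share was not tested.

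**Figure D5:**
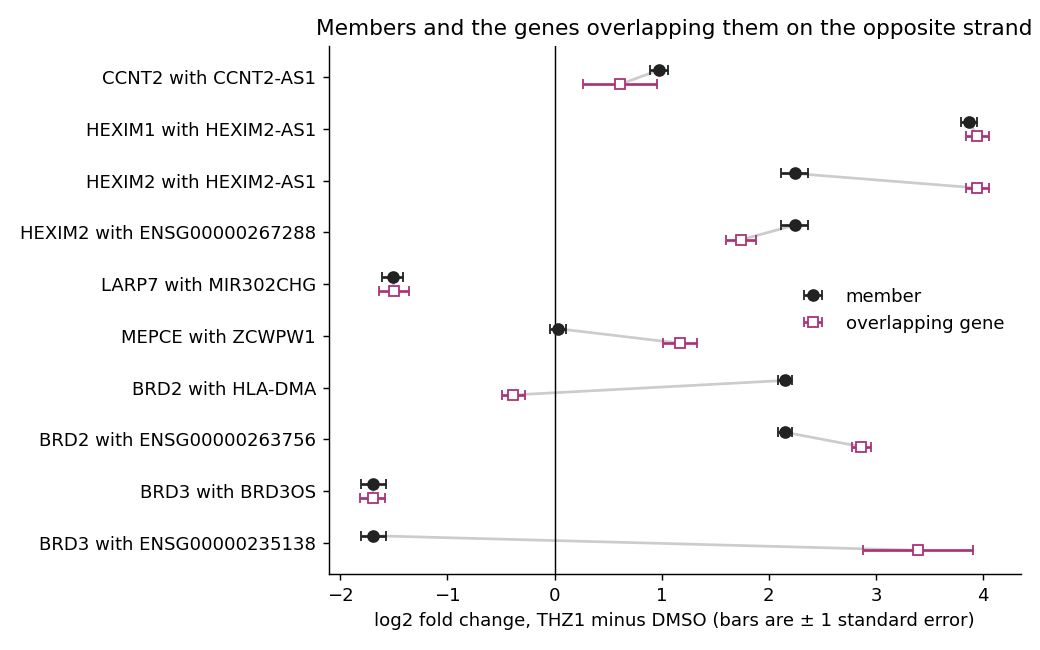
log2 fold change, THZ1 minus DMSO, with bars of ± 1 standard error, for each gene described (black circles) and the gene overlapping it on the opposite strand (open squares), 1 pair per row. HEXIM1, LARP7 and BRD3 lie within 0.1 of HEXIM2-AS1, MIR302CHG and BRD3OS, whereas HLA-DMA and ENSG00000235138 lie on the other side of 0 from BRD2 and BRD3.

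Other genes of the same machinery were taken from lists written from general knowledge. Of 14 partners of P-TEFb, among them the subunits of the super elongation complex, 12 were tested. Of these, 5 were higher (43.5% of all genes), 4 were lower (41.1% of all) and 3 did not pass the test. The calls depended on the scaling, with 7 higher and 4 lower under upper quartile factors, and 5 higher and 5 lower under library sizes alone. The median log2 fold change of the 12 was 0.19. MLLT3 held no count in any library and AFF2 did not pass the filter. EAF1, which binds the ELL elongation factors, topped the list with a log2 fold change of 2.91 (SE 0.08), and rose from 45.9 ± 5.15 to 345 ± 14.1 CPM (SD, n = 3 libraries each). PPM1G, a phosphatase known to release P-TEFb from 7SK, stood at the bottom with −2.30 (SE 0.08) and fell from 270.4 ± 17.3 to 55.0 ± 4.63 CPM.

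The 7SK RNA itself, RN7SK, was counted at low level. Its counts were 31, 32 and 27 with DMSO and 237, 464 and 280 with THZ1, or 2.56, 2.62 and 2.28 CPM against 31.2, 64.2 and 37.4 CPM. All THZ1-treated libraries were higher, THZ1 replicate 2 the most, and the log2 fold change was 4.14 (SE 0.22, edgeR adjusted p = 1.2e-17), or 3.77 without that library. RN7SK is a product of RNA polymerase III with no poly(A) tail and many near-identical copies in the genome, so its counts are uncertain. Its rise stood beside a fall of all 5 RNA-binding proteins listed that bind 7SK after P-TEFb has left it, where 41.1% of all genes were called lower. HNRNPA2B1, an RNA-binding protein of spliced transcripts, had the lowest log2 fold change of these, −2.43 (SE 0.07), from 1910.4 ± 61.1 to 356 ± 22.8 CPM. The median of the 6 was −1.30.

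The 6 subunits of the pausing factors NELF and DSIF, substrates of P-TEFb, all passed the test, as 84.5% of all genes did, 3 higher (43.5% of all) and 3 lower (41.1% of all), with a median log2 fold change of −0.15. SUPT5H, the large subunit of DSIF, rose from 195 ± 7.12 to 969.8 ± 41.8 CPM, a log2 fold change of 2.31 (SE 0.07). NELFE, the RNA-binding subunit of NELF, fell from 73.1 ± 10.05 to 27.2 ± 0.623 CPM, a log2 fold change of −1.43 (SE 0.10). With library sizes alone, 1 of the 6 was higher and 3 lower, and 2 were higher with no filter and in each limma fit on the deposited values. The subunits of DSIF moved in opposite directions, since SUPT4H1, the small subunit, fell by 0.56 on the log2 scale (edgeR adjusted p = 3.4e-07).

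Of 5 genes whose proteins bind the extra-terminal domain of BET proteins, all were tested. Among them 1 was higher (43.5% of all genes), 3 were lower (41.1% of all) and 1, CHD4, did not pass the test. The median log2 fold change of the 5 was −0.74. CHD4 depended on the scaling, since 2 of the 5 were higher and 3 lower with upper quartile factors, and 1 higher and 4 lower with library sizes alone. BRDT, the BET gene of the testis, held no count in any library. JMJD6, a lysine hydroxylase, had the highest log2 fold change, 3.86 (SE 0.09), and rose from 36.5 ± 5.43 to 528 ± 7.63 CPM. BICRA, a SWI/SNF subunit, stood at the bottom with −0.98 (SE 0.12) and fell from 27.3 ± 2.40 to 13.8 ± 1.25 CPM. The highest and the lowest gene of each of these 4 lists passed the edgeR test at an adjusted p below 0.05. So did 84.5% of all genes. The genes named were picked by their log2 fold change in the same fit, so that they passed is no separate result.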

How the data were processed

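RNA-seq libraries of NALM6 cells, 3 with DMSO and 3 with 500 nM THZ1 for 24 h, were analysed. According to the methods, the authors filtered the reads, mapped them to GRCh37 with STAR and deposited raw counts per gene from htseq-count, without normalization, while the strand setting and annotation are not given in the sources used here. The submitters' processing notes also name cutadapt and RSEM. The second table that the authors deposited, of 16730 genes, holds values on a log2 scale, read as log2(FPKM + 1). It was planned as linear FPKM, so values were taken back to FPKM before limma was run with a pseudocount of 1 or 0.1, and fold changes there are on the log2(FPKM + pseudocount) scale. Its columns of the authors' own fold changes, p-values and FDR were not used.

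Genes were kept by filterByExpr (minimum count 10 in a library, 15 in total), and TMM-scaled counts were tested with edgeR (quasi-likelihood, two-sided) over all genes. Ratios used a pseudocount of 0.5. Symbols, coordinates and exon lengths came from GENCODE 44 mapped to GRCh37, and promoter windows from RefSeq (GRCh38.p14). No libraries of a group were duplicates (chi-square of 1.78 to 9.19 per gene between them). The 9 genes and the lists were chosen with earlier results of these data known. Genes named are the 9, the highest and lowest of each list, and RN7SK, and 1 listed gene is not reported here. Overlapping genes, SUPT4H1, CHD4, single myeloid markers, and genes at 0 or below the filter were named after their values were seen. The pipeline was tested on simulated counts in which few genes changed, unlike in these data, so that test does not cover the scaling used here. Versions were R 4.3.3, edgeR 4.0.16, limma 3.58.1, DESeq2 1.42.0 and Python 3.11.15.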

Additional observations from a re-analysis of the deposited data

How the results depend on the processing

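Alternatives tried were DESeq2, other scaling (RLE, upper quartile, or none beyond library size), a stricter filter (10 or more counts per library) or none, a replicate block, leaving out each library in turn, and limma on the deposited values. CDK9, CCNT1, CCNT2, HEXIM1, HEXIM2, LARP7, BRD2 and BRD3 kept their direction and call in each of these that held them. HEXIM1 ranged from 3.62 to 4.06, CDK9 from 0.63 to 1.07 and BRD3 from −1.94 to −1.50. MEPCE changed sign, at −0.22 with library sizes alone, −0.055 with no filter, −0.043 without DMSO replicate 2, −0.0097 without THZ1 replicate 2 (−0.043 to 0.068 over the libraries left out), and −0.13 in each of the 3 limma fits, whose adjusted p was 0.0785 to 0.0787. It was called higher at 0.22 with upper quartile factors and at 0.16 with the stricter filter. In limma on the deposited values, with any pseudocount or filter, 1 gene was lower in place of 2, because BRD3 has no value there. Past the fold threshold of 1.5 (log2), 3 genes in place of 5 passed with upper quartile factors, where LARP7 and BRD3 fell short, 4 passed with RLE factors, DESeq2 and the stricter filter, where LARP7 fell short, and 4 to 5 with each library left out, LARP7 falling short without DMSO replicate 3 and without THZ1 replicate 2. With library sizes alone, 1 pausing factor in place of 3 was higher, and with upper quartile factors 2 BET partners in place of 1. Among all genes, 4088 were higher and 2142 lower at this fold threshold, against 1821 and 1178 with the stricter filter, 6393 and 2311 with DESeq2, and 6996 and 2898 with no filter. Same-numbered libraries did not deviate together (correlations of −0.0040, 0.00097 and 0.0206). No pairing by number was thus seen, though 3 libraries per group cannot exclude it. With the replicate block 6 genes were higher, 2 lower and 5 past the fold threshold, as without it. The 5 ratios moved by less than the spread between libraries under each alternative run, and the HEXIM1 to CDK9 difference ranged from 2.95 to 3.02. The replicate block cannot move a difference between mean ratios, by arithmetic, so it is no check on the ratios. Depth limits RN7SK, with 27 to 32 counts per DMSO-treated library, more than BRD3, with 85 to 101 per THZ1-treated library.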
